A study of Mus musculus with 8 samples.

Results

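Dazl, Boll, Cpeb1, Cpeb2, Cpeb3, Cpeb4, Celf1, Pum2 and Elavl1 encode RNA-binding proteins that act on the 3′UTRs of germ cell mRNAs, and their transcript levels were examined in mouse spermatocytes with and without CNOT4. The genes were picked by symbol as members of the DAZ, CPEB, CELF, PUM and ELAV families, and 9 of 9 were found among the 23235 symbols of the tables. Each of the 9 was above 1 FPKM (fragments corrected for transcript length and library depth) in at least 1 library and was thus among the 15899 genes tested.

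RNA-seq libraries came from spermatocytes of male C57BL/6 mice, 6 weeks old according to the methods, in 4 groups of 2 libraries: WT and Cnot4-null, each at leptotene and zygotene (LZ) and at pachytene and diplotene (PD). Cnot4-null males carry floxed Cnot4 alleles and a Cre transgene (Cnot4 fl/fl;Stra8-Cre). Cre is driven there by Stra8, which germ cells express from before meiosis, so the other cells of the testis retain the gene. Cells were sorted by DNA stain, and each library represents a small pool of them. The methods describe amplified cDNA (Smart-Seq2), the labels a TruSeq library from total RNA, and it was not determined which applies. The methods call the duplicates biological, but the mice behind each library are not listed, so p-values measure the spread between these libraries. An exact test of 2 libraries against 2 cannot reach a p below 0.333, and all p-values below therefore come from a limma model over all genes.

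Depth was read from genes at low values, where FPKM multiplied by length advances in steps of 1 fragment. With a single length offset of 200 nt, between 78.7 and 83.3% of such values fell within 0.1 of a whole number of fragments, against 20% if they were spread evenly. Relative to WT LZ replicate 1, the libraries held 1 and 1.06 (WT LZ), 0.928 and 1.05 (Cnot4-null LZ), 1.21 and 1.32 (WT PD), 1 and 0.819 (Cnot4-null PD) times its fragments. These estimates come from the FPKM alone, and their order differs from that of the read totals listed by the authors.

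Cnot4 itself was measured in every library. Its values were 36.0 and 34.9 FPKM (WT LZ), 43.2 and 34.6 (Cnot4-null LZ), 76.6 and 73.1 (WT PD) and 65.9 and 53.5 (Cnot4-null PD). The genotypes overlapped at LZ, and the Cnot4-null PD pair lay under the WT PD pair (log2 change -0.33, 95% interval -0.79 to 0.14, limma adjusted p = 0.192). The floxed allele loses exon 2, which cannot be seen in 1 value per gene, so these levels do not test the genotype, and each library is named by its label.

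As background, male germ cells store many mRNAs and translate them later, and proteins bound to the 3′UTR decide when. CPEB proteins bind the U-rich cytoplasmic polyadenylation element and recruit enzymes that lengthen or shorten the poly(A) tail, DAZL and BOLL recruit poly(A)-binding protein, and PUM proteins bring in the CCR4-NOT deadenylase, the complex with which the E3 ligase CNOT4 associates. CELF1 and ELAVL1 bind GU-rich and AU-rich elements, with CELF1 known for promoting decay and ELAVL1 for stabilising its targets.

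The labelled stages were checked against marker lists. All 10 markers of PD spermatocytes rose from LZ to PD in WT and 8 of 10 rose in Cnot4-null, under every scaling of the libraries tried (21.6% and 27.8% of all genes rose, as deposited). Their summed level was 237 and 349.5 FPKM (WT LZ), 256 and 99.1 (Cnot4-null LZ), 12081 and 11214 (WT PD) and 5591 and 1952 (Cnot4-null PD). Ldhc, which encodes the germ cell lactate dehydrogenase, was the most abundant of them, with 10594 and 9725 FPKM (WT PD) and 4585 and 1474 FPKM (Cnot4-null PD). Of 7 markers of LZ spermatocytes 6 were in the tables, and 4 of these (Stra8, Dmc1, Prdm9 and Mei1) fell from LZ to PD in WT while Spo11 rose (36.2% and 21.6% of all genes). Their sum, led by Sycp3, was 1112 and 1359.6 FPKM (WT LZ), 2547 and 1386 (Cnot4-null LZ), 930.2 and 955 (WT PD) and 771 and 458 (Cnot4-null PD). Of the PD markers, 2 of 10 were called lower in Cnot4-null PD than in WT PD and 0 higher, beside 11.5% lower and 41.6% higher of all genes, or 10 lower with medians made equal, 8 on genes expressed in all libraries and 3 after quantile normalization. At PD, Stra8, Dmc1 and Prdm9 were called higher and Spo11 and Sycp3 lower in Cnot4-null than in WT, with Prdm9 at 1.31 as deposited but -0.073 after quantile normalization. Stra8 gave 330.1 and 293 FPKM (WT LZ), 614 and 355 (Cnot4-null LZ), 8.70 and 6.47 (WT PD) and 228 and 149 (Cnot4-null PD). The stage labels thus matched most of their spermatocyte markers in direction.

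Transcripts of some other testis cells were high in the libraries labelled Cnot4-null PD. The sort by DNA stain was meant to collect spermatocytes. The paper reports a check of the identity and purity of the sorted cells by staining for SYCP3 and pH2AX. Whether the same gate was used for WT PD and Cnot4-null PD was not determined. The 7 Leydig cell markers summed to 17.2 and 9.89 FPKM (WT LZ), 10.8 and 19.0 (Cnot4-null LZ), 116 and 7.07 (WT PD) and 10077 and 22282 (Cnot4-null PD). Most of this was Insl3, the peptide hormone of Leydig cells, with 15.0 and 8.75 FPKM (WT LZ), 8.25 and 16.9 (Cnot4-null LZ), 104 and 4.90 (WT PD) and 9669 and 21608 (Cnot4-null PD). All 7 were called higher in Cnot4-null PD than in WT PD under each of the 4 scalings, beside 41.6% of all genes as deposited, and Lhcgr was listed at 0 in all LZ libraries. The 7 spermatid markers, led by the protamine gene Prm1, summed to 1835 and 1521 FPKM (WT LZ), 4043 and 713 (Cnot4-null LZ), 417 and 260.2 (WT PD) and 15840 and 7187 (Cnot4-null PD). All 7 were called higher in Cnot4-null PD than in WT PD, or 6 of 7 when libraries were rescaled to the same median.

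Spermatogonial markers, led by Uchl1, summed to 717 and 683 FPKM (WT LZ), 463 and 653 (Cnot4-null LZ), 19.6 and 12.9 (WT PD) and 324 and 446 (Cnot4-null PD). All 7 were called higher in Cnot4-null PD than in WT PD, and between 5 and 6 under the other scalings. For 6 peritubular and vascular markers, led by Acta2, the sums were 4.57 and 6.14 FPKM (WT LZ), 4.23 and 3.21 (Cnot4-null LZ), 4.05 and 2.54 (WT PD) and 78.2 and 327 (Cnot4-null PD). The 6 Sertoli cell markers found of 7, led by Clu, summed to 65.7 and 58.9 FPKM (WT LZ), 6.62 and 10.1 (Cnot4-null LZ), 8.83 and 16.5 (WT PD) and 99.9 and 205 (Cnot4-null PD). Of 5 tested, 3 were called higher in Cnot4-null PD than in WT PD, beside 41.6% of all genes, and 1 after quantile normalization, and Amh was listed at 0 in 7 of 8 libraries. Clu alone gave 94.6 and 196 FPKM in Cnot4-null PD, against 55.9 and 47.4 in WT LZ. Gata4 was also highest in Cnot4-null PD, while Wt1 overlapped between that group and WT LZ. Cldn11 and Sox9 were highest in WT LZ, with Cldn11 at 6.90 and 7.76 FPKM there and 1.86 and 0.113 in Cnot4-null PD. The 7 macrophage markers, led by Lyz2, summed to 37.5 and 1.03 FPKM (WT LZ), 12.4 and 5.12 (Cnot4-null LZ), 3.25 and 2.96 (WT PD) and 27.2 and 116 (Cnot4-null PD). Of these 7, 3 were called higher in Cnot4-null PD than in WT PD, which is near the 41.6% of all genes, and 0 after quantile normalization, and replicate 1 was below WT LZ replicate 1. Sums of Leydig, spermatid and peritubular markers were thus highest in the group labelled Cnot4-null PD, as was the Sertoli sum, mostly through Clu. Spermatogonial sums in that group were above WT PD and below all LZ libraries. The part of these other cell types in the results at PD and between stages was not tested. Fewer cells of a type and less RNA per cell cannot be told apart in such bulk libraries.

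**Figure D1:**
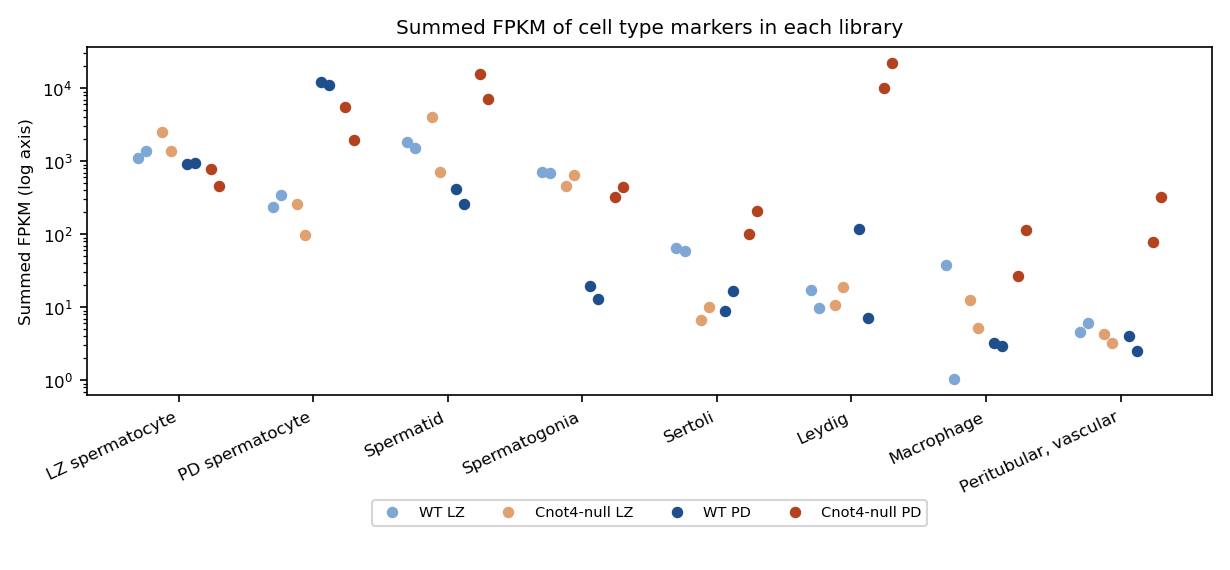
Summed FPKM of 8 lists of cell type markers (log axis), with 1 point per library and 2 libraries per group. The Leydig, spermatid, peritubular and Sertoli sums of Cnot4-null PD lie above those of all other groups, with 10077 and 22282 FPKM for Leydig cell markers against at most 116 elsewhere. Clu makes up most of the Sertoli sum.

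In WT, the transition from LZ to PD changed most of the 9 genes. Dazl, Cpeb1, Cpeb3, Celf1 and Pum2 fell and Boll and Cpeb2 rose, 7 of 9 by limma with Benjamini-Hochberg adjusted p under 0.05, the limit used for a call throughout. Over all genes tested, 57.8% were called in this comparison, 21.6% higher and 36.2% lower. The median log2 change was -0.91 for the 9 genes and -0.32 for all genes. In Cnot4-null, Dazl, Cpeb1, Celf1 and Pum2 fell from LZ to PD and none of the 9 rose, where 46% of all genes were called, 27.8% higher and 18.2% lower. The medians were -0.51 for the 9 genes and 0.19 for all genes. The number called in WT was 4 of 9 without WT LZ replicate 1, WT PD replicate 1 or WT PD replicate 2, each of which leaves a lone library that is assumed to vary like the other groups.

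At LZ, limma called 0 of the 9 genes between Cnot4-null and WT. Over all genes 15 were called (0.0943%; 0.0692% higher, 0.0252% lower), against 1013 at unadjusted p under 0.05. A gene that was not called may still differ. At PD, 6 of the 9 were called between the genotypes. Dazl, Cpeb1, Cpeb3, Celf1 and Pum2 were higher in Cnot4-null and Boll was lower, although the sign was opposite for Cpeb3 under quantile normalization and for Celf1 and Pum2 with medians made equal. Over all genes 53.1% were called at PD, 41.6% higher and 11.5% lower, so most of the background lay in the same direction. The median log2 change was 0.64 for the 9 genes and 0.66 for all genes. The number called was 2 of 9 without either WT PD library, 8 of 9 without Cnot4-null PD replicate 1 and 5 of 9 without replicate 2.

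The genotype effect at PD was then set against that at LZ by the interaction term. It was called for Dazl, Cpeb1 and Boll, positive for the first pair and negative for Boll, where 30% of all genes were called, 26% positive and 3.97% negative. Its median was 0.60 for the 9 genes and 0.64 for all genes. All 5 comparisons draw on the same 4 groups, so that comparisons which have a group in common share its libraries.

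**Figure D2:**
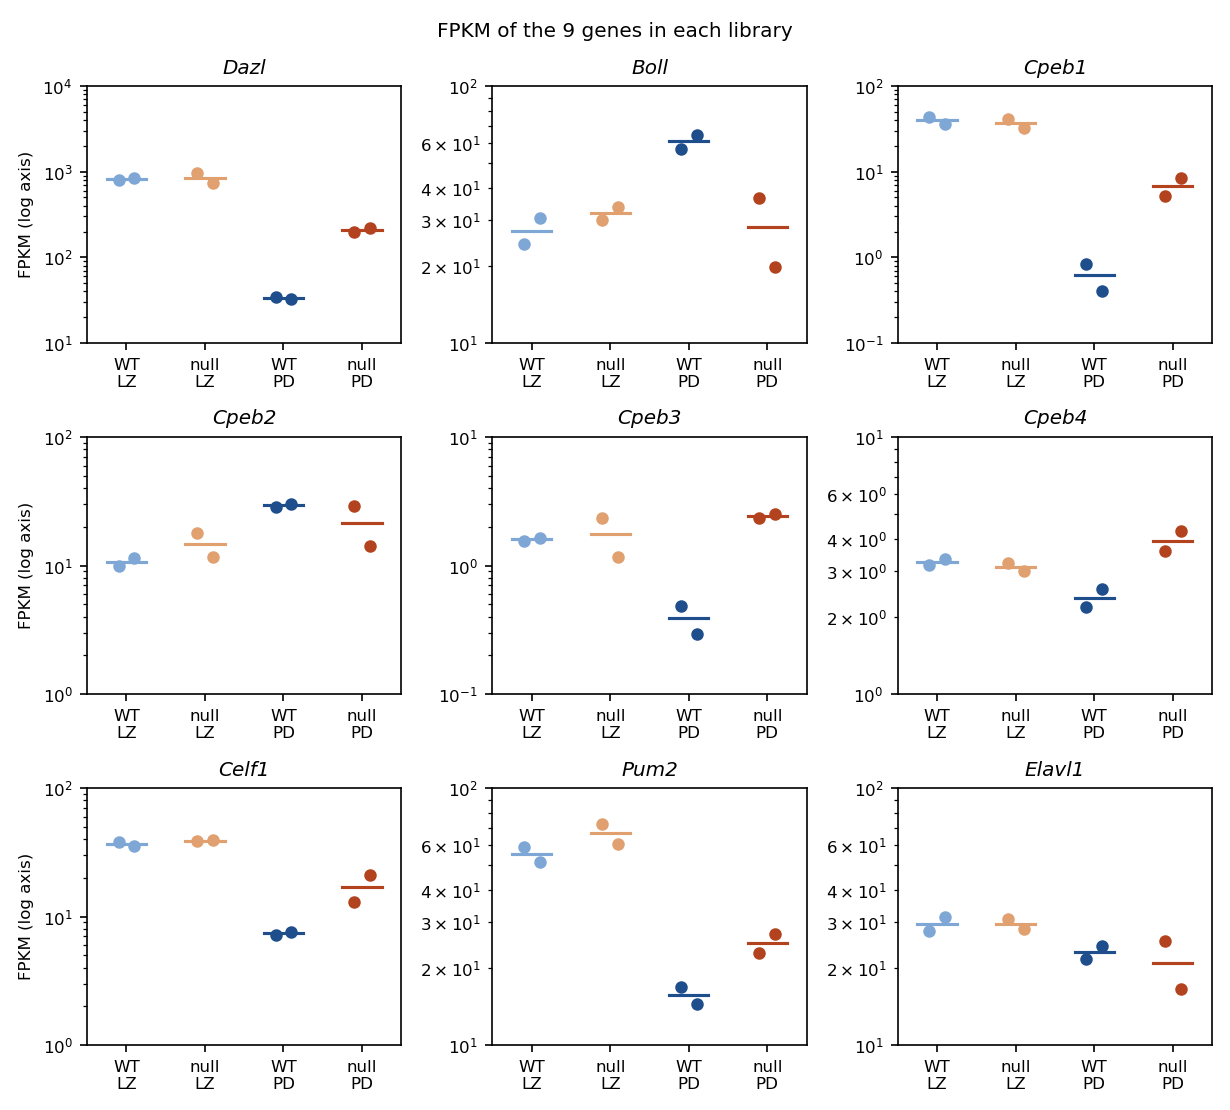
FPKM (log axis) of each of the 9 genes in the 8 libraries. Points are libraries and bars are means of 2. Dazl, Cpeb1, Celf1 and Pum2 are lowest in WT PD and intermediate in Cnot4-null PD, Boll is highest in WT PD, and the genotypes lie close together at LZ.

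The DAZ family is represented by Dazl and Boll. Dazl (chr17:50418719-50432924 of mm9, minus strand), required for germ cells to enter and pass through meiosis, gave 809 and 848 FPKM (WT LZ), 966 and 736 (Cnot4-null LZ), 34.9 and 32.9 (WT PD) and 200.2 and 221 (Cnot4-null PD). All 4 LZ values were above all PD values, the genotypes overlapped at LZ, and WT PD was lowest in both libraries, below the Cnot4-null PD pair. In WT, Dazl fell from LZ to PD by 4.57 on the log2(FPKM + 1) scale (95% interval -5.04 to -4.11, limma adjusted p = 1.66e-05), and in Cnot4-null by 1.998 (limma adjusted p = 0.00053). At PD the change between genotypes was 2.60 (95% interval 2.13 to 3.06, limma adjusted p = 0.000192) and 1.94 relative to the median of all genes. The interaction was 2.57 (limma adjusted p = 0.0018), and 1.11 with medians made equal. Dazl was called in these 4 comparisons under every alternative run, with adjusted p at PD between 0.000133 and 0.0131 by limma. The PD change ranged from 1.18, with libraries rescaled to the same median, to 2.67.

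Dazl was among the most abundant transcripts at LZ, between the 99.0th and 99.1st percentile of the genes tested in all LZ libraries. It lay at the 82.0th and 81.3rd percentile in WT PD and at the 95.2nd and 97.3rd in Cnot4-null PD. Between 77.8 and 80.8% of the summed FPKM of the 9 genes came from Dazl at LZ. At PD its part was 20.6 and 18.6% (WT) against 59.2 and 66.1% (Cnot4-null).

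Boll (chr1:55305502-55420313, minus strand), the ancestral member of the family and known from later spermatocytes and spermatids, had the opposite course. It gave 24.3 and 30.5 FPKM (WT LZ), 30.1 and 33.9 (Cnot4-null LZ), 57.0 and 64.7 (WT PD) and 36.6 and 19.7 (Cnot4-null PD). WT PD was thus the highest group, while the Cnot4-null PD libraries differed from each other and spanned the LZ values. Boll rose in WT by 1.13 (95% interval 0.43 to 1.83, limma adjusted p = 0.0137). In Cnot4-null its change from LZ to PD was -0.24 (limma adjusted p = 0.534), and -0.67 without Cnot4-null PD replicate 1. Over the alternatives run it ranged from -0.81 to 0.19, so its direction depended on the setting.

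Between genotypes at PD, Boll was lower in Cnot4-null by -1.14 (95% interval -1.85 to -0.44, limma adjusted p = 0.0163), or -1.81 relative to all genes, and its interaction was -1.37 (limma adjusted p = 0.0471). The direction was negative in both under all scalings. The interaction was near the limit, with limma adjusted p between 0.00422 and 0.16 over the alternatives, and it was not called without WT LZ, Cnot4-null LZ or WT PD replicates 1 or 2 (6 libraries, each left out alone, values from -1.21 to -1.53). It was also not called with no filter (limma adjusted p = 0.0635) or without the trend (0.0584). The PD change was not called with only the libraries compared (limma adjusted p = 0.0704), nor without WT PD replicate 1 (-1.24, limma adjusted p = 0.0688) or replicate 2 (-1.05, 0.0998), and it was -0.72 without Cnot4-null PD replicate 2. The rise in WT was not called without WT LZ replicate 1 (0.97, limma adjusted p = 0.0894), WT PD replicate 1 (1.22, 0.0538) or WT PD replicate 2 (1.04, 0.0862).

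Ratios within a library are unchanged by rescaling it, though not by quantile normalization. Dazl over Boll was 33.4 and 27.8 (WT LZ), 32.1 and 21.7 (Cnot4-null LZ), 0.613 and 0.508 (WT PD) and 5.48 and 11.2 (Cnot4-null PD). The ratio fell below 1 in the WT PD libraries and in no others, and the Cnot4-null PD values lay between those of WT PD and LZ without overlap.

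The 3′UTRs of these genes were searched on the transcript strand of GENCODE vM1, in the last 300 nt of the longest 3′UTR of each gene, and the same window was taken from 11423 tested genes. The word UUGUU, of the U-rich kind that DAZL binds, was present in 8 of the 9 windows and in 48.6% of all windows. Dazl itself held 2 copies and Boll none. The Boll window came from the transcript with the longest 3′UTR, which ends close to chr1:55325712. Boll has 6 coding transcripts and its annotation extends to chr1:55305502, so other 3′ ends of this gene were not searched. Among the 9 genes, Cpeb2 held the most copies, 3. A relation between copies and changes in level was not tested. A stretch around 1 Dazl copy and 1 Cpeb1 copy is shown as an example, with the word in capitals, 5′ to 3′.
Dazl, chr17:50418902-50418922, 196 nt before the end: aaauguaaUUGUUgcuguaug
Cpeb1, chr7:88491995-88492015, 96 nt before the end: cuaccucaUUGUUguauaugc
These are matches of letters, and binding was not measured.

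The CPEB genes differed among themselves. Cpeb1 (chr7:88491912-88600351, minus strand), the founding member, which is needed for meiotic prophase in germ cells, gave 43.8 and 36.2 FPKM (WT LZ), 41.2 and 32.2 (Cnot4-null LZ), 0.841 and 0.406 (WT PD) and 5.26 and 8.43 (Cnot4-null PD). The LZ genotypes overlapped, and the 3 levels (LZ, Cnot4-null PD, WT PD) did not overlap. With the longest coding transcript, the WT PD values correspond to about 19.0 and 9.96 fragments, an estimate that depends on the transcript model, and the Cnot4-null PD values to about 98.1 and 129. Cpeb1 fell in WT by 4.67 (95% interval -5.35 to -3.98, limma adjusted p = 2.81e-05) and in Cnot4-null by 2.28 (limma adjusted p = 0.00117). At PD it was higher in Cnot4-null by 2.26 (95% interval 1.57 to 2.94, limma adjusted p = 0.00101), 1.59 relative to all genes, and the interaction was 2.38 (limma adjusted p = 0.00713). The PD change was called under every alternative run, from 0.97 to 3.29. The interaction was 1.11 (limma adjusted p = 0.0946) after quantile normalization, and from 0.00473 to 0.0946 over the alternatives.

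Cpeb2 (chr5:43624702-43680963, plus strand), which belongs with Cpeb3 and Cpeb4 to a second branch of the family, gave 9.83 and 11.4 FPKM (WT LZ), 17.9 and 11.7 (Cnot4-null LZ), 28.7 and 30.0 (WT PD) and 29.1 and 14.1 (Cnot4-null PD). Cpeb2 was higher in WT PD than in all LZ libraries, and the Cnot4-null PD replicates differed, with replicate 1 at the WT PD level. It rose in WT by 1.39 (95% interval 0.55 to 2.22, limma adjusted p = 0.0118), a call lost without WT LZ replicate 1 (1.29, limma adjusted p = 0.0715), WT PD replicate 1 (1.42, 0.0605) or WT PD replicate 2 (1.36, 0.0683). The change at PD between genotypes was -0.51 (95% interval -1.34 to 0.32, limma adjusted p = 0.249), or -1.17 relative to all genes. It was called after rescaling to the same median (-1.89, limma adjusted p = 0.00256) and after rescaling on genes expressed in all libraries (-0.93, 0.0325). Without Cnot4-null PD replicate 1 the change was -1.01. Over the alternatives run it ranged from -1.89 to -0.013, so the difference all but vanished in some. From LZ to PD in Cnot4-null it changed by 0.46 (limma adjusted p = 0.313), by -0.094 after rescaling to the same median, and by 0.96 without Cnot4-null PD replicate 2. That replicate, at 14.1 FPKM, lay between the Cnot4-null LZ values of 17.9 and 11.7, so the rise rested on replicate 1.

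Cpeb3 (chr19:37095781-37283091, minus strand), known as a translational repressor in neurons, was the lowest of the 9 genes at LZ. It gave 1.56 and 1.63 FPKM (WT LZ), 2.35 and 1.16 (Cnot4-null LZ), 0.481 and 0.294 (WT PD) and 2.33 and 2.54 (Cnot4-null PD). WT PD was below all other libraries, at about 21.3 and 14.1 fragments. It fell in WT by 0.91 (95% interval -1.59 to -0.22, limma adjusted p = 0.0307), a call lost under the 3 other scalings (-0.31, -0.58 and -0.76, limma adjusted p from 0.052 to 0.342) and without any of the 4 WT libraries (-0.81 to -1.004). At PD it was higher in Cnot4-null by 1.31 (95% interval 0.62 to 1.997, limma adjusted p = 0.00906), but by -0.10 after quantile normalization (limma adjusted p = 0.772). The PD call was lost after rescaling to the same median (0.62, limma adjusted p = 0.081) and without WT PD replicate 1 (1.41, limma adjusted p = 0.0508) or replicate 2 (1.21, 0.0746).

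Cpeb4 (chr11:31772211-31835634, plus strand), which acts after CPEB1 in meiotic maturation of oocytes, varied least of the CPEB genes. It gave 3.17 and 3.35 FPKM (WT LZ), 3.24 and 3.002 (Cnot4-null LZ), 2.19 and 2.56 (WT PD) and 3.61 and 4.30 (Cnot4-null PD). WT PD was the lowest group and Cnot4-null PD the highest. Cpeb4 was called in none of the 5 comparisons as deposited. At PD its change between genotypes was 0.55 (95% interval -0.01 to 1.12, limma adjusted p = 0.0879), but -0.54 with medians made equal (limma adjusted p = 0.079) and -0.90 after quantile normalization (limma adjusted p = 0.0221), so its direction depended on the scaling. It was called without Cnot4-null PD replicate 1 (0.65, limma adjusted p = 0.0363).

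The makeup of the CPEB family changed with stage. Of the summed FPKM of the 4 genes, Cpeb1 gave 75.0 and 68.8% (WT LZ), 63.7 and 67.0% (Cnot4-null LZ), 2.61 and 1.22% (WT PD) and 13.1 and 28.7% (Cnot4-null PD). Cpeb2 gave 16.8 and 21.7% (WT LZ), 27.7 and 24.3% (Cnot4-null LZ), 89.1 and 90.2% (WT PD) and 72.2 and 48.0% (Cnot4-null PD). Cpeb1 thus led at LZ in both genotypes and Cpeb2 led at PD. The summed level of the 4 genes was 58.3 and 52.6 FPKM (WT LZ), 64.7 and 48.0 (Cnot4-null LZ), 32.3 and 33.2 (WT PD) and 40.3 and 29.4 (Cnot4-null PD).

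**Figure D3:**
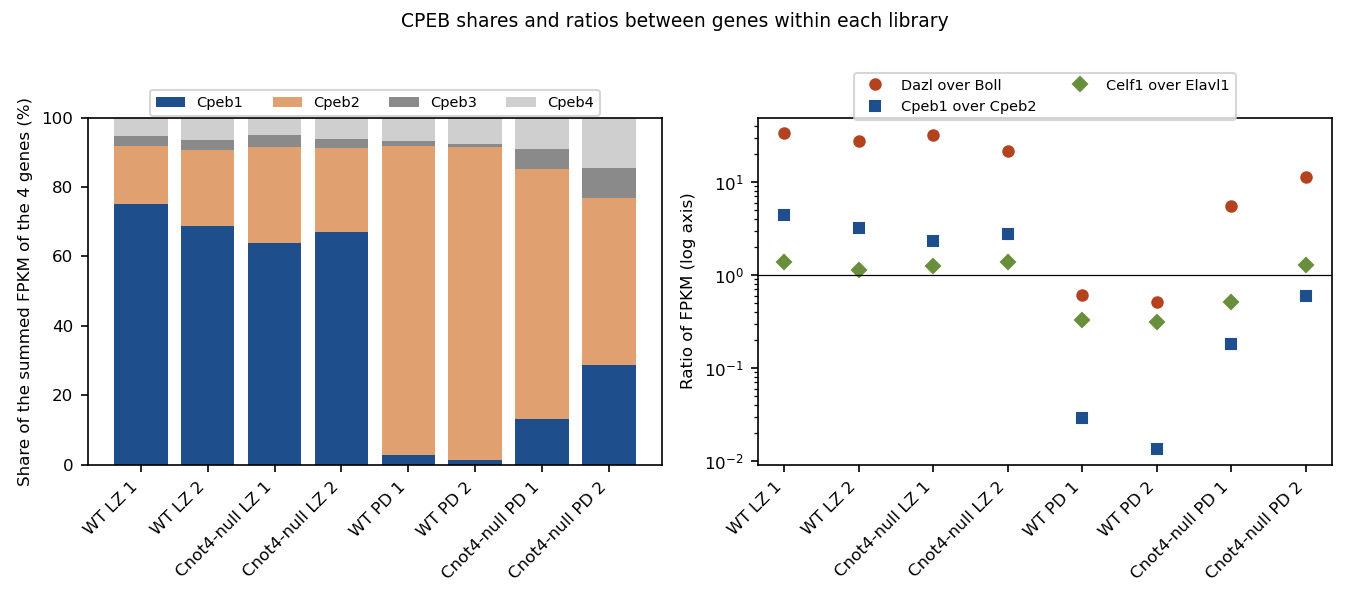
Left, share of each CPEB gene in the summed FPKM of the 4 genes, 1 bar per library. Right, ratios of FPKM between pairs of genes within each library (log axis). Cpeb1 makes up 63.7 to 75.0% at LZ and 1.22 to 2.61% in WT PD, and the ratios in Cnot4-null PD lie between those of LZ and WT PD, except that Celf1 over Elavl1 in replicate 2 reaches the LZ range.

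The cytoplasmic polyadenylation element UUUUAU was found in the last 300 nt of the 3′UTR in 4 of the 9 genes (Cpeb2, Cpeb3, Cpeb4 and Elavl1) and in 29.2% of all windows. Cpeb2 held 5 copies, the first pair overlapping, and Elavl1 held 2. The word UGUANAUA, bound by PUM proteins, was in 0 of the 9 windows and in 10.1% of all. GACAGA, a word bound in vitro by the RNA recognition motif of CNOT4, was in 1 of 9, Cpeb3, and in 8.67% of all. UAUUUAU, an AU-rich element, was in Cpeb2 and Cpeb4 and in 9.74% of all. Examples of the words found in the CPEB genes are shown, 5′ to 3′ and with the word in capitals. Cpeb1 held none of these 4 words, and enrichment was not tested.
Cpeb2, chr5:43680797-43680818, UUUUAU 159 nt before the end: uuaguuuaUUUUAUuguuaucu
Cpeb3, chr19:37096000-37096021, UUUUAU 233 nt before the end: uaaauuaaUUUUAUgaugcuaa
Cpeb3, chr19:37095787-37095808, GACAGA 20 nt before the end: aauaaaacGACAGAaugagcag
Cpeb4, chr11:31835552-31835574, UAUUUAU 75 nt before the end: caaaugacUAUUUAUaccaguau
The annotated 3′UTRs of the 9 genes were between 1315 nt (Cpeb1) and 6132 nt (Celf1) long, each above the median of 1006 nt over 14186 tested genes. A word that is not in the window may lie elsewhere in the 3′UTR or in transcripts with another 3′ end.

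Celf1 (chr2:90780539-90859654, plus strand), which promotes deadenylation of mRNAs with GU-rich elements and is needed for spermatogenesis, gave 37.8 and 35.1 FPKM (WT LZ), 38.7 and 39.1 (Cnot4-null LZ), 7.15 and 7.63 (WT PD) and 12.9 and 20.9 (Cnot4-null PD). All PD values were below all LZ values, and Cnot4-null PD was above WT PD in both libraries. Celf1 fell in WT by 2.16 (95% interval -2.74 to -1.58, limma adjusted p = 0.000259) and in Cnot4-null by 1.19 (limma adjusted p = 0.00739, and 0.056 with only the libraries compared). At PD it was higher in Cnot4-null by 1.06 (95% interval 0.47 to 1.64, limma adjusted p = 0.011), 0.39 relative to all genes, but -0.26 after rescaling to the same median (limma adjusted p = 0.358). The PD call was also lost after quantile normalization (0.36, limma adjusted p = 0.38), on genes expressed in all libraries (0.67, 0.0774), with only the libraries compared (0.0593) and without WT PD replicate 1 (1.01, limma adjusted p = 0.0721) or replicate 2 (1.097, 0.0611), with limma adjusted p between 0.00143 and 0.381 in the alternatives.

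Pum2 (chr12:8680940-8759387, plus strand), a Pumilio repressor found in germ cells, gave 58.7 and 51.7 FPKM (WT LZ), 72.7 and 60.4 (Cnot4-null LZ), 16.8 and 14.5 (WT PD) and 22.9 and 27.0 (Cnot4-null PD). The stages did not overlap in either genotype, and at both stages the lower Cnot4-null value was above the higher WT value. Pum2 fell in WT by 1.76 (95% interval -2.23 to -1.28, limma adjusted p = 0.000265) and in Cnot4-null by 1.38 (limma adjusted p = 0.00195). At PD its change between genotypes was 0.64 (95% interval 0.16 to 1.11, limma adjusted p = 0.0326), equal to -0.02 once the all-gene median is taken off, and -0.73 with medians made equal (limma adjusted p = 0.0119). The call was lost after quantile normalization (0.22, limma adjusted p = 0.444), on genes expressed in all libraries (0.23, 0.34), with only the libraries compared (0.0691) and without the trend (0.0505). It was also lost without WT PD replicate 1 (0.74, limma adjusted p = 0.0879), WT PD replicate 2 (0.54, 0.172) or Cnot4-null PD replicate 2 (0.52, 0.076). At LZ the change was 0.26 (95% interval -0.21 to 0.74, limma adjusted p = 0.946).

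Elavl1 (chr8:4284782-4325100, minus strand), which encodes the AU-rich element binder HuR, gave 27.8 and 31.4 FPKM (WT LZ), 31.0 and 28.3 (Cnot4-null LZ), 21.7 and 24.3 (WT PD) and 25.3 and 16.4 (Cnot4-null PD). The genotypes overlapped at both stages. Elavl1 was called in 0 of the 5 comparisons as deposited. From LZ to PD it changed by -0.35 in WT (95% interval -0.92 to 0.21, limma adjusted p = 0.258), but by 0.51 after rescaling to the same median, and by -0.51 in Cnot4-null (limma adjusted p = 0.12). In Cnot4-null it was called under quantile normalization (-0.80) and with medians made equal (-1.07). There it was -0.81 without Cnot4-null PD replicate 1, and ranged from -1.07 to -0.22 over the alternatives run. At PD its change between genotypes was -0.16 (95% interval -0.73 to 0.41, limma adjusted p = 0.589), or -0.82 relative to all genes. It was called after rescaling to the same median (-1.53, limma adjusted p = 0.00147) and on genes expressed in all libraries (-0.57, 0.0451). Over the alternatives run the PD change ranged from -1.53 to 0.14, so its direction depended on the setting. Celf1 over Elavl1 was 1.36 and 1.12 (WT LZ), 1.25 and 1.38 (Cnot4-null LZ), 0.330 and 0.315 (WT PD) and 0.510 and 1.27 (Cnot4-null PD).

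**Figure D4:**
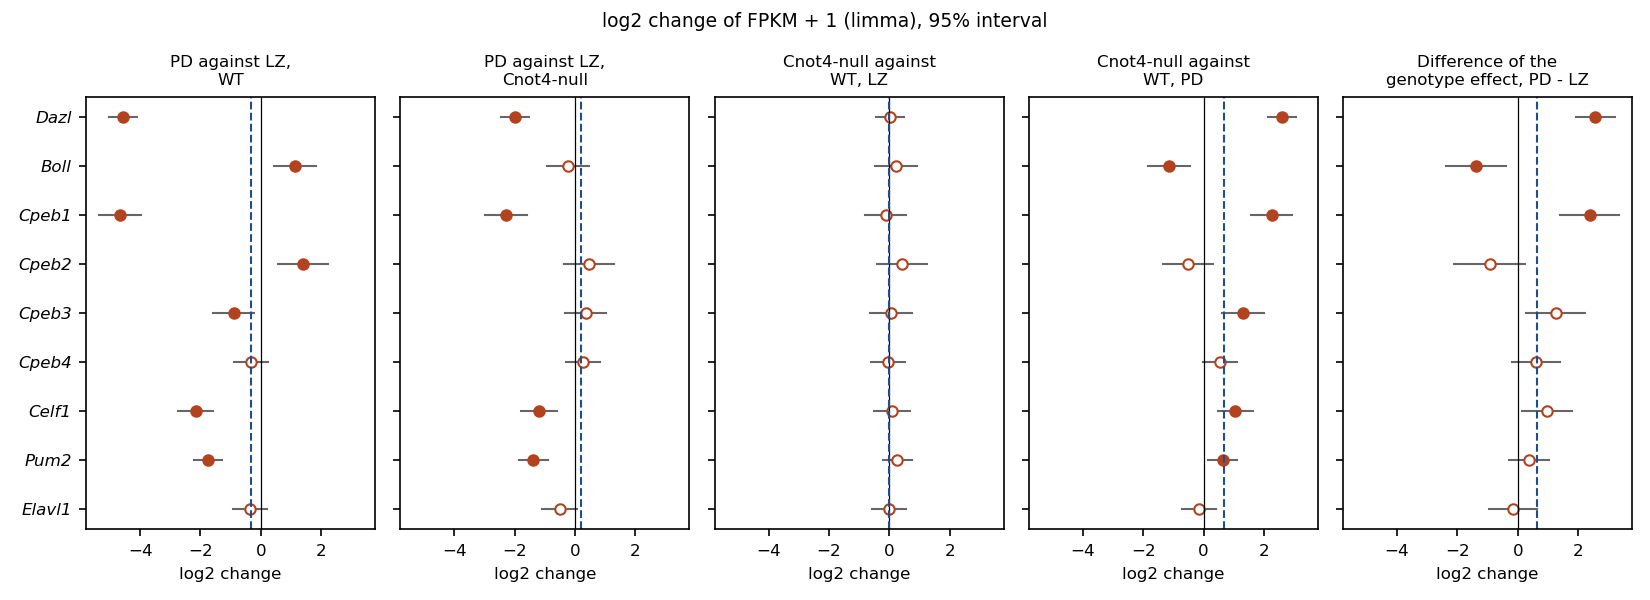
log2 change of FPKM + 1 by limma with 95% intervals for the 9 genes in the 5 comparisons. Filled points are called (adjusted p under 0.05), and the dashed line is the median of all genes, which is -0.32, 0.19, 0, 0.66 and 0.64 from left to right. Dazl and Cpeb1 lie far from that line in the stage and PD panels, whereas Pum2 and Cpeb4 lie on it at PD.

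The scaling of the libraries bears on all comparisons at PD, because WT PD libraries had a median of 3.05 and 3.04 FPKM over the genes tested, Cnot4-null PD 8.09 and 8.43, and the LZ libraries between 5.18 and 5.78. Of the genes called at PD between genotypes, 78.3% were higher in the values as deposited, 36.7% with medians made equal, 41.0% after quantile normalization and 60.3% after rescaling on genes above 1 FPKM in all 8 libraries. The median change of all genes was 0.66, -0.21, -0.10 and 0.42 in that order. Among the 9 genes, 5 were called higher and 1 lower as deposited, 2 and 4 with medians made equal, 2 and 2 after quantile normalization, and 3 and 3 after the last rescaling. Dazl and Cpeb1 were called higher and Boll lower under all 4 scalings. The last scaling was chosen after seeing the data.

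The same held across stages. From LZ to PD, the share of calls that were higher was 37.4% in WT as deposited and 54.8, 46.1 and 45.6% under the other scalings in the same order, and in Cnot4-null 60.5% against 39.1, 37.4 and 57.5%. For the interaction it was 86.8% against 29.6, 44.1 and 63.3%. In WT, Dazl, Cpeb1, Celf1 and Pum2 were called lower and Boll and Cpeb2 higher under all 4 scalings.

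**Figure D5:**
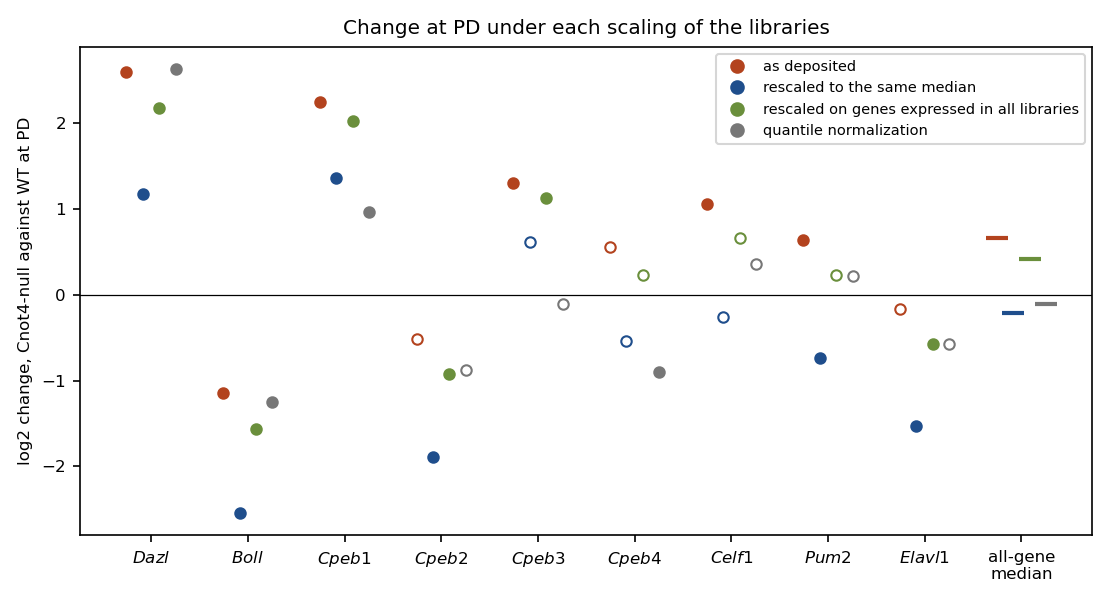
log2 change between Cnot4-null and WT at PD for the 9 genes under 4 scalings of the libraries. Filled points are called (limma adjusted p under 0.05), and dashes give the median of all genes. Dazl and Cpeb1 stay above 0 and Boll, Cpeb2 and Elavl1 below it, while Cpeb3, Cpeb4, Celf1 and Pum2 cross it.

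Other genes of these families, and the DAZ-associated genes Dazap1 and Dazap2, were described from a list of 10. Of these, 9 were tested and Celf5 was too low. In WT 6 fell and 1 rose from LZ to PD, with a median of -1.35, beside 36.2% lower, 21.6% higher and a median of -0.32 for all genes. At PD, where 41.6% of all genes were called higher and 11.5% lower, 3 (Celf2, Celf6 and Elavl2) were higher in Cnot4-null and none lower, and 0 were called at LZ. The same number was higher under each scaling, with 0 to 3 lower under the others. Elavl2, an ELAV protein of neurons and germ cells, gave 57.4 and 43.5 FPKM (WT LZ), 70.8 and 52.4 (Cnot4-null LZ), 0.551 and 0.269 (WT PD) and 8.01 and 12.3 (Cnot4-null PD). As for Cpeb1 and Dazl, WT PD was lowest and Cnot4-null PD lay between it and LZ, with a PD change of 2.96 (limma adjusted p = 0.000356). Celf2, a paralog of Celf1, gave 23.7 and 21.2 FPKM (WT LZ), 32.6 and 23.1 (Cnot4-null LZ), 0.607 and 0.615 (WT PD) and 11.7 and 22.7 (Cnot4-null PD), with a PD change of 3.43 (limma adjusted p = 0.000345). Dazap1 rose in WT by 1.08 and Dazap2 fell by 1.59, and for both the direction at PD depended on the scaling (0.09 and 0.00 as deposited, limma adjusted p = 0.718 and 1, but called at -1.32 and -1.42 with medians made equal).

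Of 14 partners of CPEB in cytoplasmic polyadenylation and repression, 7 fell and 1 rose in WT from LZ to PD, beside 36.2% lower and 21.6% higher of all genes, and 3 and 3 with medians made equal. The 4 most abundant were Pabpc1, Eif4e, Eif4enif1 and Cpsf3. Pabpc1, a poly(A)-binding protein, rose in WT by 2.41 (limma adjusted p = 0.00038). It gave 287 and 259 FPKM (WT LZ), 399 and 300.7 (Cnot4-null LZ), 1546 and 1365 (WT PD) and 1106 and 632 (Cnot4-null PD). Eif4enif1, the eIF4E-binding repressor 4E-T, fell in WT by 1.65 (limma adjusted p = 0.000542) and Cpsf3 by 1.49 (0.00197), the latter not called after rescaling to the same median. At PD 4 of 14 (Papd4, Parn, Cpsf1 and Cpsf4) were higher in Cnot4-null and 0 lower, beside 41.6% higher and 11.5% lower of all genes as deposited. The counts were 1 and 8 with medians made equal, 1 and 3 on genes expressed in all libraries and 1 and 2 after quantile normalization. Parn, a deadenylase that acts with CPEB1, gave 23.1 and 22.6 FPKM (WT LZ), 19.7 and 21.2 (Cnot4-null LZ), 0.854 and 1.09 (WT PD) and 16.8 and 14.2 (Cnot4-null PD). It was named after its values were seen, since it alone was called higher at PD under all 4 scalings.

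Among 7 partners of PUM proteins and NANOS genes, 3 fell and 1 rose in WT, beside 36.2% lower and 21.6% higher of all genes. At PD 4 were higher and 1 lower in Cnot4-null, but 1 and 2 with medians made equal, 2 and 2 on genes expressed in all libraries and 1 and 2 after quantile normalization, beside 41.6% higher and 11.5% lower of all genes as deposited. Nanos3, among those higher, is also in the list of 7 spermatogonial markers, all of which were called higher as deposited. Cnot1, the scaffold of CCR4-NOT, gave 30.7 and 30.7 FPKM (WT LZ), 40.8 and 35.0 (Cnot4-null LZ), 75.0 and 69.4 (WT PD) and 35.6 and 26.7 (Cnot4-null PD). It was lower in Cnot4-null PD by -1.20 (limma adjusted p = 0.00318) and lower under every scaling. Dnd1, a germ cell RNA-binding protein, was higher by 1.55 (limma adjusted p = 0.00193), a call lost with medians made equal (0.35) or under quantile normalization (0.39). Cnot8, a deadenylase, changed by 0.87 (limma adjusted p = 0.0211) and by -0.49 after rescaling to the same median. Cnot7, its paralog, was at -0.65 as deposited (limma adjusted p = 0.15) and called lower with medians made equal (-2.003, 0.00195), on genes expressed in all libraries (-1.06, 0.0458) and after quantile normalization (-1.19, 0.0498).

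Of 7 other binders of AU-rich elements, 4 fell and 1 rose in WT, beside 36.2% lower and 21.6% higher of all genes, or 2 and 2 with medians made equal. At PD 4 were higher in Cnot4-null and 0 lower, or 3 and 4 with medians made equal and 3 and 1 under each other scaling, beside 41.6% higher and 11.5% lower of all genes as deposited. Zfp36l2, which promotes decay, gave 37.0 and 34.0 FPKM (WT LZ), 41.8 and 41.6 (Cnot4-null LZ), 0.693 and 0.846 (WT PD) and 13.6 and 33.2 (Cnot4-null PD). Its PD change was 3.66 (limma adjusted p = 0.00041) and that of Zfp36l1 was 5.01 (0.000497), each called under all 4 scalings. Tial1 rose in WT by 0.86 (limma adjusted p = 0.0122). Hnrnpd was higher at PD by 0.69 (limma adjusted p = 0.0446), but by -0.65 after rescaling to the same median. Somatic cells of the testis also express the ZFP36 genes, and the part of such cells in the PD changes of these genes was not tested.

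A further list held 18 RNA-binding regulators of male germ cells, of which 17 were tested. In WT 7 rose and 5 fell (21.6% and 36.2% of all genes). At PD, where 41.6% of all genes were higher and 11.5% lower, 7 were higher and 4 lower in Cnot4-null, or 4 and 9 with medians made equal, 6 and 7 on genes expressed in all libraries and 4 and 6 after quantile normalization. Ybx2, a germ cell protein that stores mRNA, gave 37.7 and 44.4 FPKM (WT LZ), 38.9 and 35.1 (Cnot4-null LZ), 495 and 484 (WT PD) and 489 and 371 (Cnot4-null PD). It rose in both genotypes. Ddx25, a helicase of late spermatocytes and spermatids, gave 57.3 and 72.2 FPKM (WT LZ), 64.9 and 43.4 (Cnot4-null LZ), 707 and 639.6 (WT PD) and 399.6 and 125 (Cnot4-null PD), and was lower in Cnot4-null PD by -1.58 (limma adjusted p = 0.032). Fxr1 rose in WT by 1.12 (limma adjusted p = 0.00577).

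Known mRNA targets of DAZL or CPEB1 in germ cells were Ddx4, Sycp3, Sycp1 and Tex19.1. At PD, Tex19.1 was higher in Cnot4-null and Ddx4 and Sycp3 were lower, under all 4 scalings, and Sycp1 was at 0.29 as deposited (limma adjusted p = 0.33), called at -1.13 with medians made equal and called at 0.56 after quantile normalization. Ddx4, the germ cell helicase VASA, gave 153 and 151 FPKM (WT LZ), 168 and 146 (Cnot4-null LZ), 282 and 311 (WT PD) and 165 and 132 (Cnot4-null PD). Its PD change was -1.01 (limma adjusted p = 0.00495). Tex19.1 gave 89.4 and 82.9 FPKM (WT LZ), 92.4 and 117 (Cnot4-null LZ), 3.84 and 4.74 (WT PD) and 49.6 and 58.0 (Cnot4-null PD), a PD change of 3.37 (limma adjusted p = 0.000116). The synaptonemal complex gene Sycp3 gave 650.2 and 906 FPKM (WT LZ), 1725 and 907 (Cnot4-null LZ), 785 and 799 (WT PD) and 473 and 259.6 (Cnot4-null PD). The 4 targets thus did not share a direction at PD, where 41.6% of all genes were called higher and 11.5% lower. A link between their levels and those of Dazl or Cpeb1 was not tested.

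Genes with the most similar pattern were sought by Pearson correlation of log2(FPKM + 1) over the 8 libraries, among 9340 genes with a mean of at least 5 FPKM. For Dazl these were Pip5k1a, Wsb1 and Tubgcp3, with r of at least 0.9988. Pip5k1a gave 32.8 and 33.0 FPKM (WT LZ), 38.4 and 29.3 (Cnot4-null LZ), 2.31 and 1.91 (WT PD) and 9.86 and 11.8 (Cnot4-null PD). For Cpeb1 they were Nup160, Nsf and Nln (r of at least 0.9986), for Boll Rpp30, Cand1 and Agfg1 (0.988 to 0.982), and for Elavl1 Sip1, Ube2d3 and Vhl (0.981 to 0.9751). The 8 libraries fall into 4 groups, so r mainly describes the order of the groups. Rpp30 gave 69.4 and 92.4 FPKM (WT LZ), 92.3 and 90.9 (Cnot4-null LZ), 208 and 218 (WT PD) and 129 and 54.0 (Cnot4-null PD), with Cnot4-null PD replicate 2 below replicate 1, as in Boll.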

How the data were processed

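The authors mapped trimmed reads to mm9 with TopHat2 2.1.1 and computed FPKM with Cufflinks 2.2.1, as the methods and the submitters' processing notes state, and deposited 1 FPKM per gene symbol and library. No scaling between libraries is described. Genes above 1 FPKM in at least 1 of 8 libraries were kept. Log2(FPKM + 1), a scale that understates changes of low genes, was fitted for 4 groups by lmFit, contrasts.fit and eBayes with trend (limma 3.58.1, R 4.3.3; 4 residual degrees of freedom), two-sided, with Benjamini-Hochberg adjustment over all genes within each of 5 contrasts. Intervals are those of limma. The fit was tested on simulated data for the genotypes at PD, where few genes were changed and the rest held no change. Bias was small there, but part of the larger changes and most of the smallest were not called. In the real libraries 53.1% of all genes were called at PD, so the simulated share of missed changes does not carry over. A gene not called may still differ. The rest used Python 3.11.15 with pandas 2.3.3, numpy 2.4.6, matplotlib 3.10.9 and scipy 1.17.1.

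All 9 genes are named, with the 4 most abundant genes of each list as examples. Genes called in a list may be named with its count, and Parn was added after its values were seen. The genes and lists were chosen with earlier results of these data known. Meioc, Meiob and Rhox5 were listed but not found under these symbols. Positions and 3′UTRs are those of GENCODE vM1 (mm9), and fragments were estimated from the longest coding transcript. Such estimates are not independent molecules and carry counting error only. Alternatives were no filter, a mean FPKM of at least 5, a pseudocount of 0.1, quantile normalization, rescaling to the same median, no trend, only the libraries compared, a replicate block, each library left out, and, added after seeing the data, rescaling on genes above 1 FPKM in all libraries.

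With 2 libraries per group, leaving out 1 changed several calls. FPKM carry no counts, so depth and fragments are estimates. Directions near the all-gene median depend on how libraries are scaled, and no spike-in was available to choose a scaling. The libraries labelled Cnot4-null PD carry transcripts of other cell types despite the sort by DNA stain. Sums of spermatogonial and spermatid markers were also higher in the LZ libraries than in WT PD. No correction for cell composition was made, between genotypes or between stages. Levels of mRNA say nothing on protein or on poly(A) tails.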

Additional observations from a re-analysis of the deposited data

Results flagged for a closer look

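For 3 of the 9 genes the effect of the genotype differed between PD and LZ by the interaction term of the limma model, which was called for 30% of all genes. For Dazl the difference was 2.57 on the log2 scale (limma adjusted p = 0.0018), and 1.11 with medians made equal. For Cpeb1 it was 2.38 (limma adjusted p = 0.00713), 1.45 with medians made equal and 1.11 under quantile normalization. For Boll it was -1.37 (limma adjusted p = 0.0471), and -2.81 with medians made equal. The call of Boll was lost when any of the WT LZ, Cnot4-null LZ or WT PD libraries was left out (limma adjusted p up to 0.16), with no filter (0.0635) or without the trend (0.0584), and that of Cpeb1 under quantile normalization (limma adjusted p = 0.0946). The PD libraries of Cnot4-null that enter this term also carry high levels of Leydig cell and spermatid markers, and of spermatogonial markers when set against WT PD alone, and the part of these in the differences was not tested.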

How the results depend on the processing

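The count of 9 genes called between genotypes at LZ was 0 under all settings. From LZ to PD in WT it ranged from 4 to 6 with a library left out, against 7, and in Cnot4-null from 4 to 6, against 4. At PD between genotypes, against 6, it ranged from 2 to 8 with a library left out and was 3 with only the libraries compared. For the interaction, against 3, it ranged from 2 to 6 with a library left out and was 6 after rescaling to the same median. With a call in at least 1 of the 2 fits, directions reversed between genotypes at PD for Cpeb3 (-0.10) and Cpeb4 (-0.90) after quantile normalization and for Celf1 (-0.26) and Pum2 (-0.73) after rescaling to the same median, and for Pum2 in the interaction (-1.04) after the same rescaling. Without a call in either fit, the sign also changed for Cpeb4 at PD (-0.54, medians made equal) and in the interaction for Cpeb3 (-0.17, quantile), Cpeb4 (-0.52 and -0.89, medians made equal and quantile) and Celf1 (-0.39, medians made equal), among others. The cause was not tested beyond the scaling itself. Of the single-gene values with a library left out, 181 kept the side of the limit, 11 of them with a changed sign and no call in either fit, 25 lost the call, 10 gained it and 0 reversed with a call. Under the other settings 353 kept the side, 18 of them with a changed sign, 17 lost the call, 11 gained it and 5 reversed with a call. Calls lost with a lone library are in fits where that library is assumed to vary like the others.

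With the replicate number as a replicate block, 7, 4, 0 and 6 of the genes were called in the stage comparisons in WT and Cnot4-null and the genotype comparisons at LZ and PD, and 2 for the interaction, where Boll was not called (limma adjusted p = 0.0644). The correlation of deviations from group means, taken between libraries with the same number, was between -0.0651 and 0.194, and no label pairs these libraries. Depth limits Cpeb1 and Cpeb3 most, with about 19.0 and 9.96 fragments of Cpeb1 and 21.3 and 14.1 of Cpeb3 in WT PD.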
